A study of Mus musculus with 18 samples.

Results

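Natural aging of the wild-type aorta was followed as the difference in aortic RNA between a 24-mo and a 2-mo group of WT mice (n = 6 each), which make up 12 of the 18 mice of the series. The mice were male C57BL/6 animals of wild-type genotype, and the labels name no treatment. The labels give an age of 62 d for 5 of the 2-mo mice, 95 d for replicate 6, and 609 to 762 d for the 24-mo group. The other 6 mice, which are males of about 2 mo on the same background that carry the LMNA mutation of Hutchinson–Gilford Progeria Syndrome (HGPS), stayed out of the comparison between ages. RNA was taken from the whole descending aorta, from the end of the arch to the diaphragm, with its inner, muscular and outer layers together, so fewer cells of a type and less RNA per cell cannot be told apart. Libraries were stranded, ribosome-depleted and sequenced from both ends, and each mouse is 1 library. Of 54281 genes in the deposited table, 14345 were tested, namely those that reached 10 counts in 6 or more of these 12 mice. The totals were 12413229 to 21016752 estimated counts per mouse at 2 mo and 13622602 to 19871697 at 24 mo.

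The aortic wall holds stacked sheets of elastin and smooth muscle cells (SMCs) inside an outer coat of collagen and fibroblasts. Elastin, which is assembled on microfibrils and cross-linked by lysyl oxidase, stretches at low load, and fibrillar collagens I, III and V carry high load. Most of this matrix is laid down while the vessel grows and is long-lived thereafter, and stiffening of large arteries is a known feature of old age. The tissue label was checked against SMC markers chosen after their values were seen. Acta2, smooth muscle actin, lay at 13690, 15830 and 19070 CPM at 2 mo and at 13020, 13980 and 15690 CPM at 24 mo (lowest, median and highest of 6 mice, the order used throughout). Myh11, smooth muscle myosin, lay at 8250, 9761 and 10330 CPM at 2 mo and at 8352, 10780 and 11330 CPM at 24 mo. CPM is the usual count relative to library size, after scaling by TMM, a normalization on the bulk of the genes. All 22 of the listed SMC genes were tested.

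At the cut-offs of 1.5-fold and an adjusted p under 0.001, 248 of 14345 genes (1.73%) were called, of which 153 were higher and 95 lower at 24 mo. In 246 of the 248 the mice of one age did not overlap with those of the other, beside 933 genes without overlap (6.5%) among all tested. Large differences were mostly rises: 107 of the genes higher at 24 mo and 39 of the genes lower differed by 2-fold or more, and 46 and 11 by 4-fold or more. The median log2 fold change of all genes was 0.01. With no minimum fold and an adjusted p under 0.05, 821 genes (5.72%) rose and 685 (4.78%) fell, and these shares are the background for each gene list below. Genes called higher were of modest abundance, with a median of 10.7 CPM against 26.0 CPM for genes called lower and 18.1 CPM for all genes. They also spanned more of the genome, with a median of 62.4 kb against 36.7 kb and 22.2 kb. The numbers of calls rested on some choices. They came to 461 with DESeq2, the tool of the study, to 85 with the replicate number as a block and to 40 with scores of brown fat and skeletal muscle markers as covariates. The skeletal muscle score was itself mostly higher at 24 mo (1.41 to 1.77 against 1.68 to 2.77), so it and age can be told apart only in part. With a Schwann cell marker score as a covariate, 0 genes were called by edgeR, 16 passed an adjusted p of 0.05 and 1127 an unadjusted p of 0.05. That score did not overlap between the ages (2.35 to 2.66 against 2.81 to 3.03, mean log2 CPM of 14 genes), so that this score and age cannot be told apart in these mice. The log2 fold changes in that fit were -1.54 for Col3a1, -1.38 for Sparc and 5.37 for Tnr, against -1.66, -1.42 and 5.40 without the score.

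**Figure D1:**
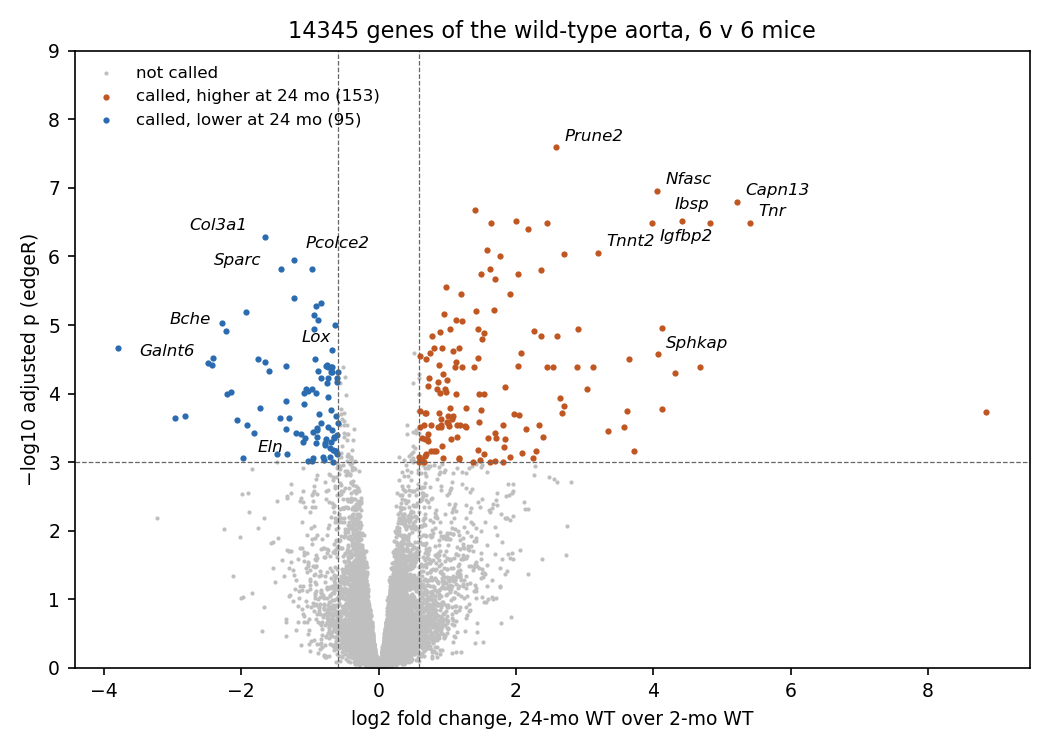
Each point is 1 of 14345 genes, placed by its log2 fold change between 24-mo and 2-mo WT aortas (x axis) and the −log10 of its adjusted p from edgeR (y axis), with dashed lines at 1.5-fold and 0.001. The 153 genes called higher reach further from 0 than the 95 called lower, and the named matrix genes Col3a1, Sparc, Pcolce2, Lox and Eln lie on the left.

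Among matrix genes, falls outnumbered rises. Of 178 tested genes in 10 lists of matrix components and calcification regulators, 55 (30.9%) fell and 19 (10.7%) rose at an adjusted p under 0.05, with a median log2 fold change of -0.15. Leaving out each mouse in turn, 42 to 61 fell. With the fat and muscle scores 32 fell and 13 rose, and with the Schwann cell score 0 fell and 2 rose by edgeR (21 and 15 at an unadjusted p under 0.05), against 61 and 22 by DESeq2 without a score. The lists were written with earlier results of these data known. Promoters are printed for 3 abundant genes of this group that fell and, for contrast, for Igfbp2, one of the largest rises. They are RefSeq promoters of GRCm38.p6, from 250 bases before to 50 bases after an annotated start, read 5′ to 3′ on the strand of the gene. Capitals mark a motif read on either strand. The first is the CCAAT box. The second is TATAAA, as in promoters with a TATA box. The last is the GC box, which reads GGGCGG. Matches did not overlap each other in these 4 promoters.
Col3a1, chr1:45311288-45311587, plus strand: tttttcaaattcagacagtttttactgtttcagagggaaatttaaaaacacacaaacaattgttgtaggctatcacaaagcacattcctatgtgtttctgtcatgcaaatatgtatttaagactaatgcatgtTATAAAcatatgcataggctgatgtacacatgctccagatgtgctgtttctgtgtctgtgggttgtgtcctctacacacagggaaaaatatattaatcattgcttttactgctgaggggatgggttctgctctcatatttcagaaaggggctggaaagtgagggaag
Col1a2, chr6:4505368-4505667, plus strand: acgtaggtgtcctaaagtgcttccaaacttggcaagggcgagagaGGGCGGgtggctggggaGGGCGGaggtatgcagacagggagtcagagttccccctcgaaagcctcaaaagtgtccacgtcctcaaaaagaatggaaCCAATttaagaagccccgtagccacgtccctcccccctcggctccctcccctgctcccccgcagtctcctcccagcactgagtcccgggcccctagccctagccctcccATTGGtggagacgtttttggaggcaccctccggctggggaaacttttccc
Sparc, chr11:55420031-55420330, minus strand: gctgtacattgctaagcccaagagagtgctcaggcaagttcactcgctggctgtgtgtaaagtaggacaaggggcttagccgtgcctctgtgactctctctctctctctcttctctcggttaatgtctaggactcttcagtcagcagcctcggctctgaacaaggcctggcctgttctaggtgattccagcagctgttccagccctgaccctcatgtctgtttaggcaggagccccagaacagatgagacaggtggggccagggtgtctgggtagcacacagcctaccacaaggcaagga
Igfbp2, chr1:72824230-72824529, plus strand: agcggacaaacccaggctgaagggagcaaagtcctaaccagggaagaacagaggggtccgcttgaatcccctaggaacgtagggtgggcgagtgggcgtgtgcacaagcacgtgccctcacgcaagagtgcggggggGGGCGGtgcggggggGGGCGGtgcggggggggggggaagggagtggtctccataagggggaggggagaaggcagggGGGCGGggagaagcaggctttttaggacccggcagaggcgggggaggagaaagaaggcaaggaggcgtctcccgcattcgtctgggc
Col3a1 held a TATAAA and no other of these letters, Col1a2 held 2 CCAAT boxes and 2 GC boxes, Sparc held none and Igfbp2 held 3 GC boxes. The TATAAA of Col3a1 began at -117 from the annotated start, and 1 of the CCAAT boxes of Col1a2 at 0. These are matches of letters, and their use was not tested. The 3 promoters of genes that fell thus shared none of the motifs searched. RefSeq promoters were found for 72 of the 95 genes called lower (82 promoters) and 103 of the 153 called higher (144 promoters). A CCAAT box stood in 26.8% of the former, 35.4% of the latter and 37.3% of 13384 promoters of tested genes (37.4% of all 32851). A GC box stood in 58.5%, 54.2% and 61.1% (35.7% of all), and TATAAA in 12.2%, 10.4% and 7.33% (13.6% of all). No promoter was matched for Col1a1, Col5a2, Eln or Mfap5.

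Of 7 tested fibrillar collagen genes 4 fell at 24 mo and 0 rose by edgeR (0 at an unadjusted p under 0.05, 0 by DESeq2), with a median log2 fold change of -0.92. Col3a1 (chr1:45311538-45349706, GRCm38), the chain of collagen III, was the most abundant of them at 2 mo. It lay at 6047, 7311 and 9025 CPM at 2 mo and at 1930, 2368 and 2844 CPM at 24 mo. Each 24-mo mouse lay far below each 2-mo mouse, and the level was 3.15-fold lower (log2 fold change -1.66 ± 0.11, adjusted p = 5.12e-07, edgeR, here and below ± SE with 6 mice per age). Its tail-to-tail neighbour Col5a2 (chr1:45374321-45503282), a chain of collagen V 24.6 kb away, lay at 812, 919 and 1094 CPM at 2 mo and at 434, 473 and 509 CPM at 24 mo. The ages were again apart, with a log2 fold change of -0.97 ± 0.07 (adjusted p = 1.52e-06). Col1a2 (chr6:4504814-4541544), which encodes the second chain of collagen I, lay at 4467, 5024 and 6093 CPM at 2 mo and at 1962, 2567 and 3589 CPM at 24 mo and was 1.93-fold lower (adjusted p = 0.000361). Col1a1 (chr11:94936224-94953042), its partner chain, was less even, at 1239, 1486 and 1820 CPM at 2 mo and at 382, 645 and 1339 CPM at 24 mo. The highest of the 24-mo mice lay within the range at 2 mo, and the log2 fold change of -0.92 ± 0.27 (adjusted p = 0.0423) no longer passed the test in 9 of the 12 fits that leave out 1 mouse. Col5a1 lay at 492, 586 and 627 CPM at 2 mo and at 319.9, 417 and 625 CPM at 24 mo and did not pass (-0.39 ± 0.14, adjusted p = 0.0917). Together Col1a1, Col1a2 and Col3a1 took 1.40% ± 0.15 of all counts at 2 mo and 0.579% ± 0.127 at 24 mo (SD, n = 6 each). The shares ran from 1.17 to 1.63% and from 0.432 to 0.774%, and the two-sided exact permutation test gave p = 0.00216, the smallest that 6 against 6 mice allow. The share sums genes whose falls in the same mice are given above, so the test is not separate evidence. Per kb of transcript, Col3a1 stood above or level with these at 2 mo (1344 CPM per kb against 1329 for Eln and 952 for Col1a2). At 24 mo it was below both, at 426 CPM per kb against 652 for Eln and 493 for Col1a2. The ratio of Col3a1 to Col1a1 within a mouse was 4.15 to 6.08 at 2 mo and 1.99 to 5.05 at 24 mo, a difference that did not pass after adjustment (two-sided exact permutation p = 0.0303, adjusted over 10 ratios 0.152, chosen after the values were seen).

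**Figure D2:**
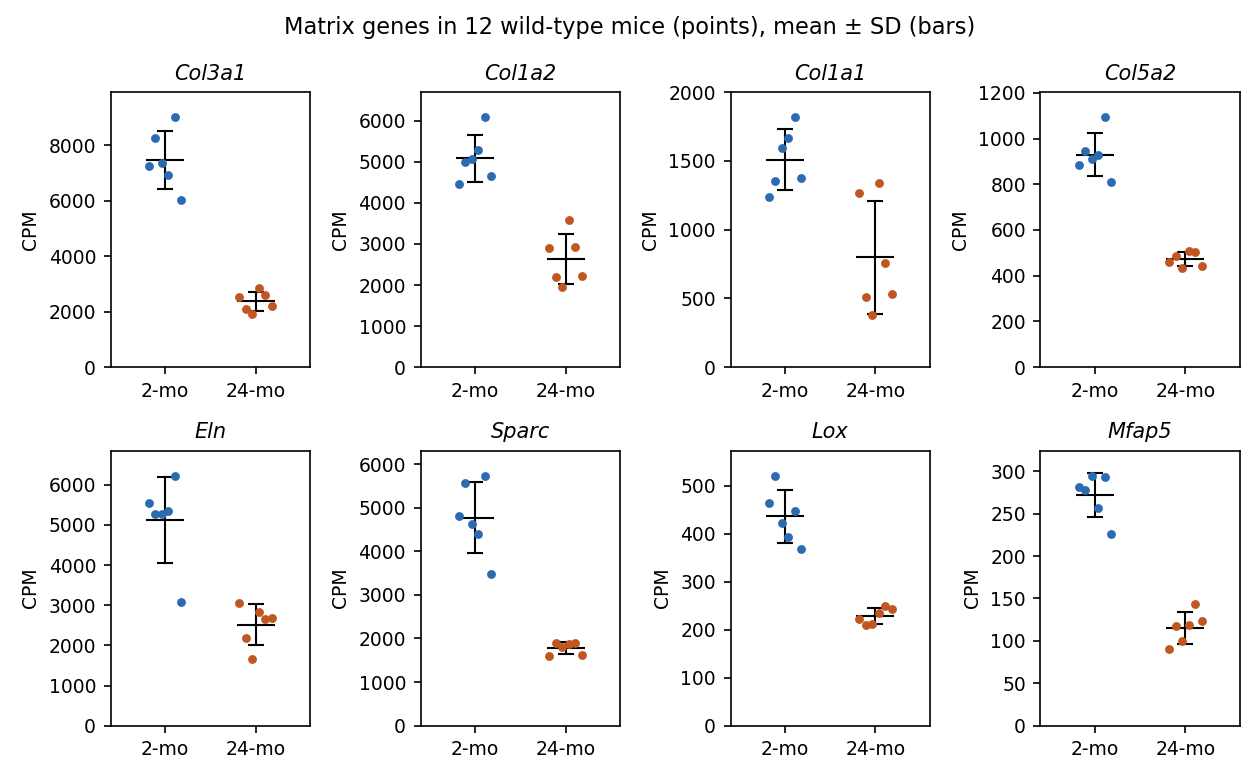
Each panel shows the CPM of 1 matrix gene (y axis, from 0) in the 6 mice of each age (points), with the mean and SD as bars. For Col3a1, Col1a2, Col5a2, Eln, Sparc, Lox and Mfap5 each 24-mo mouse lies below each 2-mo mouse, while for Col1a1 the highest 24-mo mouse (1339 CPM) lies within the 2-mo range.

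Of 30 tested genes that secrete, trim and cross-link collagen 18 (60.0%) fell and 1 rose, with a median log2 fold change of -0.36. Leaving out 1 mouse gave 16 to 18 that fell, and the fat and muscle scores gave 10. Sparc (chr11:55394500-55423183), which encodes a collagen-binding protein needed for fibril assembly, lay at 3480, 4726 and 5736 CPM at 2 mo and at 1598, 1832 and 1903 CPM at 24 mo and was 2.68-fold lower (-1.42 ± 0.11, adjusted p = 1.52e-06). The 24-mo mice were close to each other and all below the lowest 2-mo mouse. Pcolce2, which encodes an enhancer of the cleavage of procollagen ends, lay at 242, 261 and 276 CPM at 2 mo and at 82.1, 114 and 126 CPM at 24 mo and fell by 1.24 on the log2 scale (adjusted p = 1.13e-06). Adamts2, the protease that removes the N-terminal end, lay at 381, 399 and 440.3 CPM at 2 mo and at 197, 211 and 269.9 CPM at 24 mo (-0.88 ± 0.08, adjusted p = 8.42e-06). Serpinh1, the collagen chaperone of the endoplasmic reticulum, was picked after its values were seen and lay at 895, 1029 and 1167 CPM at 2 mo and at 579, 629.9 and 716 CPM at 24 mo (-0.69 ± 0.08, adjusted p = 4.88e-05). Lox, which encodes lysyl oxidase and which the study follows, lay at 368, 436 and 521 CPM at 2 mo and at 209, 229 and 249 CPM at 24 mo. The ages did not overlap, and Lox was 1.91-fold lower at 24 mo (-0.93 ± 0.08, adjusted p = 7.16e-06). From sequencing of these same libraries, the study itself describes aortic Lox mRNA as minimally altered between these ages. By RT-qPCR it reports the change as not significant. For carotid arteries it reports a rise of the LOX protein with age. In no fit that left out 1 mouse did Sparc, Pcolce2, Adamts2 or Lox fail the test.

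Of 18 elastic fiber and microfibril genes 7 fell and 2 rose. Eln, tropoelastin, lay at 3087, 5304 and 6229 CPM at 2 mo and at 1657, 2672 and 3062 CPM at 24 mo, 2.04-fold lower at 24 mo (-1.03 ± 0.17, adjusted p = 0.000956). The lowest 2-mo mouse, the one of 95 d, lay at 3087 CPM, just above the highest 24-mo mouse, and the others lay between 5263 and 6229 CPM. Mfap5, a microfibril glycoprotein, lay at 226, 279.6 and 295 CPM at 2 mo and at 90.4, 118 and 144 CPM at 24 mo (-1.24 ± 0.10, adjusted p = 4.08e-06), and Mfap4, which binds elastic fibers, at 272, 313 and 373 CPM at 2 mo and at 146, 169.8 and 183 CPM at 24 mo (-0.91 ± 0.08, adjusted p = 5.27e-06). Mfap4 lies opposite Mapk7 on the other strand, and whether the counting used strand is not given in the sources used here. Fbln1, fibulin 1, lay at 196, 226 and 244 CPM at 2 mo and at 100.2, 117 and 151 CPM at 24 mo (-0.88, adjusted p = 4.64e-05). The rises were of Efemp1 and Fbln7, both fibulins. Efemp1 rose 3.76-fold from 11.9, 17.7 and 25.6 CPM to 51.8, 73.9 and 78.3 CPM (adjusted p = 3.54e-06), with no overlap. Fbln7, named after its values were seen, rose from 53.4, 63.8 and 71.1 to 76.6, 87.9 and 121 CPM (0.53 ± 0.11, adjusted p = 0.00613), without overlap. Fibulins of one list thus moved in opposite directions.

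Of 23 basement membrane genes 7 fell and 0 rose by edgeR (1 at an unadjusted p under 0.05, 0 by DESeq2). Col4a5, a minor chain of collagen IV, lay at 726, 809 and 1006 CPM at 2 mo and at 389.5, 439 and 499 CPM at 24 mo (-0.94 ± 0.09, adjusted p = 1.16e-05). Col4a3, another minor chain, lay at 46.1, 51.5 and 69.9 CPM at 2 mo and at 22.4, 28.9 and 33.6 CPM at 24 mo (-0.92 ± 0.11, adjusted p = 9.73e-05). Npnt, nephronectin, a ligand of integrin α8β1, lay at 821, 914 and 1075 CPM at 2 mo and at 533, 576 and 766 CPM at 24 mo (-0.61 ± 0.09, adjusted p = 0.000763). Among 15 other collagens 4 fell and 2 rose. Col6a1, a chain of the beaded collagen VI, lay at 838, 898 and 1075 CPM at 2 mo and at 472, 540.2 and 622 CPM at 24 mo (-0.76 ± 0.08, adjusted p = 3.99e-05), and Col14a1, which binds the surface of fibrils, at 553, 674 and 729 CPM at 2 mo and at 369, 452 and 590.2 CPM at 24 mo (-0.51 ± 0.11, adjusted p = 0.00654). Against these, Col19a1, a rare collagen of basement membrane zones, rose 3.23-fold from 11.2, 12.5 and 17.2 to 35.1, 43.7 and 52.5 CPM (adjusted p = 2.14e-06). Col8a1, a short-chain collagen made by vascular cells, rose from 15.6, 18.8 and 24.04 to 27.9, 39.1 and 42.8 CPM (0.98 ± 0.12, adjusted p = 9.35e-05).

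Of 19 matricellular genes 5 rose and 2 fell. Fn1, fibronectin, named after its values were seen, rose 1.79-fold from 1516, 1993 and 2175 to 2715, 3343 and 4777 CPM (adjusted p = 0.000695), and Sparcl1, a relative of Sparc, from 335, 393 and 474 to 653, 730.4 and 1174 CPM (1.01 ± 0.14, adjusted p = 0.000269). Sparc and Sparcl1 thus differed in sign. Postn, periostin, lay at 2530, 2825 and 2997 CPM at 2 mo and at 1802, 1998 and 2158 CPM at 24 mo and fell by 0.50 on the log2 scale (adjusted p = 0.000189). Of 13 large proteoglycans and hyaluronan-linked genes 3 rose and 2 fell. Hapln1, the link protein that fixes proteoglycan to hyaluronan, rose 3.00-fold from 6.03, 6.57 and 7.35 to 14.3, 21.1 and 22.3 CPM (adjusted p = 8.16e-07). Vcan, versican, its partner in the vessel wall, rose from 123, 145 and 163 to 214, 259 and 309 CPM (0.85 ± 0.10, adjusted p = 8.55e-05), with an antisense gene, Gm4117, on the other strand. Cilp2 and Cilp, cartilage intermediate layer proteins, went the other way, at 3.48, 5.17 and 8.06 against 0.662, 0.869 and 1.58 CPM and at 21.9, 28.2 and 42.6 against 10.5, 12.7 and 21.8 CPM (adjusted p = 3.81e-05 and 0.00267). Of 11 small leucine-rich proteoglycans, which coat collagen fibrils, 1 fell. This was Omd (-0.47 ± 0.14, adjusted p = 0.0489), and it failed the test in 10 of 12 fits that leave out 1 mouse. Among 27 metalloproteinases and their inhibitors 10 fell and 2 rose. Adamts12 lay at 20.4, 28.3 and 38.8 CPM at 2 mo and at 8.93, 10.3 and 15.6 CPM at 24 mo and Mmp2, a gelatinase, at 169.5, 184 and 234 CPM at 2 mo and at 105, 126 and 151 CPM at 24 mo (-1.30 and -0.60, adjusted p = 0.000228 and 0.00102). Mmp3, stromelysin 1, rose from 87.3, 107 and 133 to 124, 216 and 268 CPM (0.95 ± 0.16, adjusted p = 0.00138), with overlap of the ages.

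**Figure D3:**
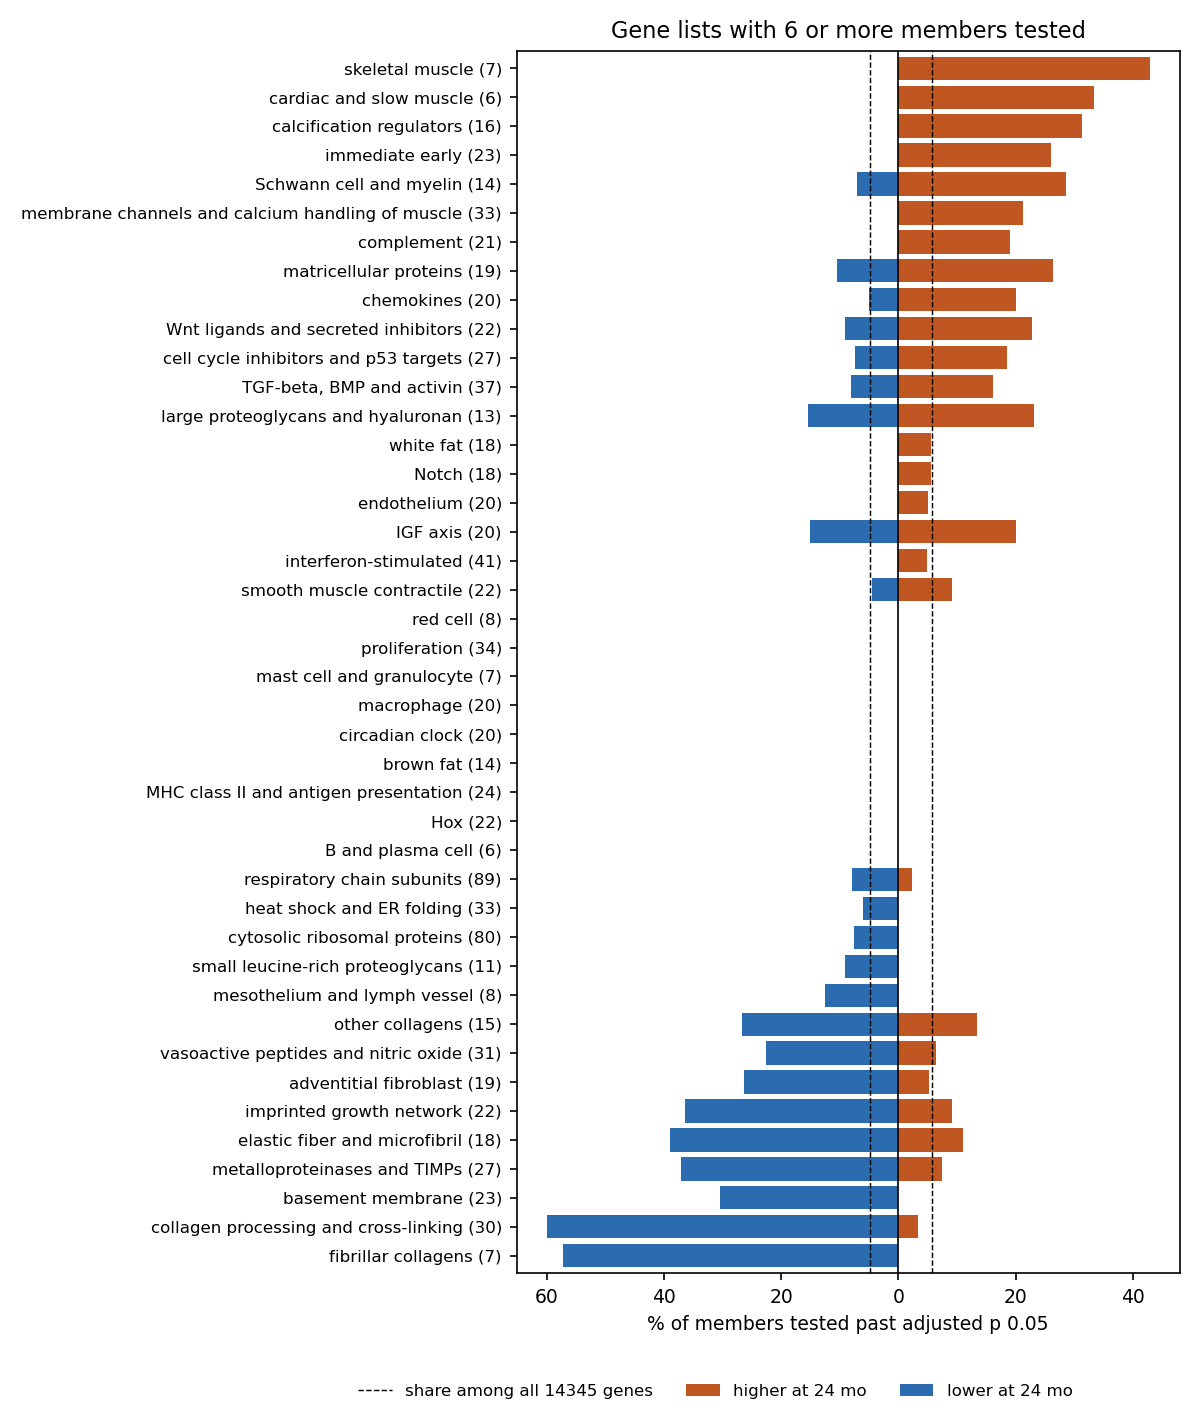
Bars give, for each gene list with 6 or more tested members (number in brackets), the percentage of members that rose (right) or fell (left) from 2 to 24 mo at an adjusted p under 0.05; dashed lines mark the shares among all 14345 genes (5.72% and 4.78%). Collagen processing and fibrillar collagens reach 60.0% and 57.1% on the left, and lists such as macrophage, proliferation and circadian clock have no bar.

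Several of the largest rises were of genes near the limit of detection at 2 mo. By the naming rule, which took the 15 largest rises and falls among 177 called genes with a mean count of at least 100 and no overlap, they led from Tnr to Pisd-ps1, with log2 fold changes of 5.40 to 2.04. Tnr, tenascin-R, a matrix glycoprotein known from the nervous system, lay at 0, 0.225 and 0.514 CPM at 2 mo and at 8.59, 11.2 and 16.4 CPM at 24 mo. It was 42.3-fold higher (5.40 ± 0.35, adjusted p = 3.22e-07), and each 24-mo mouse lay far above each 2-mo mouse. Capn13, a calpain protease, lay at 0.0808, 0.217 and 0.617 CPM at 2 mo and at 9.05, 11.3 and 13.99 CPM at 24 mo (37.3-fold, 5.22 ± 0.29, adjusted p = 1.58e-07). Sphkap, which anchors protein kinase A, rose from 3.25, 5.63 and 17.6 to 49.5, 135 and 210.4 CPM (16.8-fold, adjusted p = 2.66e-05) and varied widely at 24 mo. Nfasc, neurofascin, an adhesion protein of axons and their nodes, rose from 1.21, 2.00 and 4.16 to 32.1, 35 and 48.6 CPM (16.6-fold, adjusted p = 1.1e-07). Tnnt2, cardiac troponin T, rose from 1.37, 2.13 and 3.09 to 12.7, 20.2 and 25.7 CPM (9.16-fold, adjusted p = 8.79e-07). Prune2 had the smallest p of these and rose 5.98-fold from 8.81, 12.6 and 13.7 to 64.3, 67.5 and 89.9 CPM (adjusted p = 2.53e-08). Apod, the lipid-binding lipocalin apolipoprotein D, rose 4.50-fold from 17.1, 18.4 and 21.7 to 63.9, 82.3 and 112 CPM (adjusted p = 3.92e-07). The others were Csmd1, a membrane protein with complement control repeats, Sbspon, a secreted protein with a thrombospondin repeat, Rgs17, a regulator of G-protein signalling, Gcnt4, which branches O-glycans, Cacna2d3, an accessory subunit of calcium channels, Slc22a3, a transporter of organic cations, and Pisd-ps1, named as a pseudogene and so of uncertain counting. Their log2 fold changes ran from 2.04 to 2.89. Of the 15, 6 lie on chromosome 1 (Tnr, Sphkap, Nfasc, Igfbp2, Tnnt2 and Sbspon), on which 18 of 854 tested genes (2.11%) were called higher, beside 153 of all 14345 (1.07%). Chromosomes 5, 14 and 8 had shares close to this, at 1.91%, 1.87% and 1.76%. Ces1g, a carboxylesterase, was picked after its values were seen. It had 0 counts in all 2-mo mice and 1.63, 2.60 and 7.02 CPM at 24 mo, which is at least 114-fold higher against a floor of 3 counts over the 2-mo group.

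**Figure D4:**
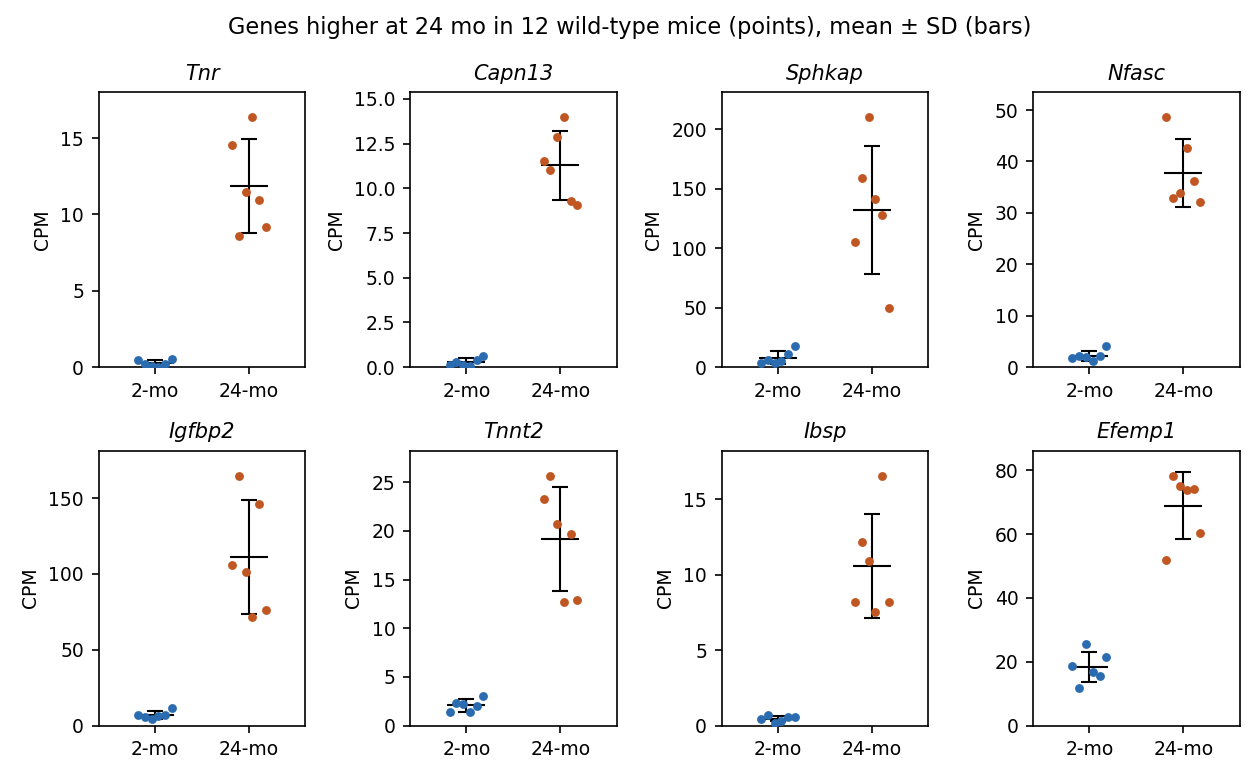
Each panel shows the CPM of 1 gene (y axis, from 0) in the 6 mice of each age (points), with the mean and SD as bars. In all 8 panels each 24-mo mouse lies above each 2-mo mouse, and Sphkap shows the widest range at 24 mo (49.5 to 210 CPM). Tnr, Capn13, Sphkap, Nfasc, Igfbp2 and Tnnt2 were named by a rule that required no overlap of the ages.

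The largest falls were of genes with diverse functions beside the matrix genes above. Galnt6, an enzyme that starts O-glycosylation of mucin type, lay at 12.2, 16.1 and 19.1 CPM at 2 mo and at 1.503, 2.34 and 4.84 CPM at 24 mo and was 5.59-fold lower (-2.48 ± 0.27, adjusted p = 3.53e-05). Bche, butyrylcholinesterase, lay at 79.96, 91.6 and 106 CPM at 2 mo and at 10.3, 21.9 and 28.8 CPM at 24 mo (4.66-fold lower, -2.22 ± 0.21, adjusted p = 1.21e-05). In both genes the mice of the ages were far apart. Olfr224, a member of the olfactory receptor family whose counts may be shared with relatives, lay at 8.59, 9.96 and 11.4 CPM at 2 mo and at 1.07, 1.95 and 3.02 CPM at 24 mo (-2.27, adjusted p = 9.37e-06). Adamtsl2, a secreted glycoprotein that binds fibrillin 1, lay at 21.97, 25.5 and 38.7 CPM at 2 mo and at 6.46, 8.48 and 11.3 CPM at 24 mo (3.13-fold lower, adjusted p = 3.47e-05), and Nrep, a short intracellular protein, at 35.6, 51.6 and 63.4 CPM at 2 mo and at 8.73, 16.5 and 19.3 CPM at 24 mo (3.37-fold lower, adjusted p = 3.17e-05). Itm2a, Cdh18, 2210407C18Rik, Smarca1 and Angptl7 had log2 fold changes between -1.72 and -1.35. Angptl7 lies opposite Mtor, which had 1598 counts per mouse on average.

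Genes known from mineralized tissue were among the rises. Of 16 tested regulators of calcification 5 rose and 0 fell by edgeR (1 at an unadjusted p under 0.05, 0 by DESeq2). Ibsp, bone sialoprotein, which binds mineral in bone, lay at 0.209, 0.512 and 0.708 CPM at 2 mo and at 7.57, 9.56 and 16.6 CPM at 24 mo (21.5-fold higher, 4.42 ± 0.27, adjusted p = 3.08e-07). Spp1, osteopontin, its neighbour on chromosome 5 (chr5:104299171-104311469 and chr5:104435118-104441050, 123.6 kb apart), rose from 0.488, 0.672 and 1.36 to 2.34, 4.67 and 7.85 CPM (6.47-fold, adjusted p = 0.00015). Tnfrsf11b, osteoprotegerin, an inhibitor of osteoclast formation, rose 2.73-fold from 17.5, 22.1 and 29.6 to 45.1, 61.8 and 72.9 CPM (adjusted p = 1.16e-05). Fetub, a fetuin of the cystatin family, rose from 0.139, 0.337 and 0.514 to 0.702, 1.84 and 4.22 CPM (2.55, adjusted p = 0.00178), and Sox9, the cartilage transcription factor named after its values were seen, from 0.733, 0.824 and 1.115 to 1.08, 1.98 and 4.57 CPM (1.42, adjusted p = 0.0127). The members that moved thus include inhibitors as well as proteins of bone. Except for Tnfrsf11b they lay below 20 CPM in all mice.

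Genes of the IGF axis moved in both directions. Of 20 genes 4 rose and 3 fell. Igfbp2 (chr1:72824503-72852474), which binds IGFs in the extracellular space, lay at 4.39, 6.47 and 11.7 CPM at 2 mo and at 71.7, 104 and 165 CPM at 24 mo and was 15.7-fold higher (3.98 ± 0.26, adjusted p = 3.22e-07). Its tail-to-tail neighbour Igfbp5 (chr1:72857932-72874884), 5.5 kb away, rose from 388, 439 and 587 to 549, 839 and 1135 CPM (0.87 ± 0.15, adjusted p = 0.00151), with some overlap. Igf1, the ligand, lay at 54.1, 64.3 and 82.9 CPM at 2 mo and at 25.2, 30.6 and 40.7 CPM at 24 mo and was 2.08-fold lower (-1.06 ± 0.13, adjusted p = 8.5e-05), without overlap. Igf2bp2, an RNA-binding protein that binds Igf2 mRNA and is known from fetal tissue, fell from 2.51, 3.96 and 4.32 to 0.611, 0.879 and 1.56 CPM (-1.81, adjusted p = 0.000376). Of 22 imprinted genes, several of which act on fetal and postnatal growth, 8 fell (36.4%) and 2 rose. Rian, a long noncoding RNA of the Dlk1-Meg3 cluster on chromosome 12, fell from 46.1, 61.1 and 64.1 to 19.95, 27.96 and 38.1 CPM (-1.08 ± 0.13, adjusted p = 9.73e-05), and Mirg, its neighbour there, from 1.18, 2.94 and 5.39 to 0.493, 1.28 and 1.85 CPM (-1.28, adjusted p = 0.0288). Peg3, Slc38a4 and Plagl1 fell by 0.41, 0.93 and 0.55 on the log2 scale (adjusted p = 0.000902, 0.00264 and 0.0121). H19 fell from 1.18, 2.09 and 2.56 to 0.308, 0.973 and 1.43 CPM, near the limit of detection (-1.05, adjusted p = 0.0348), and Igf2 lay at 4.12, 6.81 and 8.59 CPM at 2 mo and at 3.16, 7.18 and 7.84 CPM at 24 mo (-0.10, adjusted p = 0.85). Igf2, H19 and Mirg were named after their values were seen. With the fat and muscle marker scores as covariates, 2 imprinted genes fell and 2 rose.

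In the signalling lists, antagonists and ligands both moved. Among 37 genes of TGF-beta, BMP and activin signalling 6 rose and 3 fell. Chrdl1, a secreted BMP antagonist, rose 3.07-fold from 45.98, 61.1 and 67.4 to 129, 182 and 215 CPM (adjusted p = 1.52e-06), and Bmp3, a ligand that opposes other BMPs, from 21.2, 28.3 and 35.2 to 48.6, 59.3 and 73.4 CPM (1.11 ± 0.12, adjusted p = 4.15e-05). Fstl1, a follistatin-like secreted protein, lay at 2230, 2416 and 2599 CPM at 2 mo and at 1398, 1489 and 1731 CPM at 24 mo and fell by 0.67 on the log2 scale (adjusted p = 2.29e-05). Of 22 genes listed as Wnt ligands and secreted inhibitors, with other Wnt regulators among them, 5 rose and 2 fell. They include Rspo3, which amplifies Wnt signals (0.74 ± 0.12, adjusted p = 0.00113), and Sfrp1, a secreted inhibitor (-0.94 ± 0.21, adjusted p = 0.00851). Of 18 Notch genes 1 rose. This was Jag2, a Notch ligand, from 2.01, 3.42 and 4.11 to 5.59, 9.06 and 15.6 CPM (2.84-fold, adjusted p = 0.0011).

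Of 22 SMC contractile genes 2 rose and 1 fell. Des, desmin, rose from 48.97, 49.4 and 60.8 to 53.1, 70.7 and 84.3 CPM (0.45 ± 0.10, adjusted p = 0.00708) and Cald1, caldesmon, from 773, 893 and 956 to 961, 1034 and 1159 CPM (0.26, adjusted p = 0.025). Itga8, the integrin partner of nephronectin, lay at 5993, 6835 and 7128 CPM at 2 mo and at 5057, 5633 and 6279 CPM at 24 mo (-0.26, adjusted p = 0.0243), with an abundant noncoding gene, E030013I19Rik, on the other strand. Both Cald1 and Itga8 failed the test in 4 of 12 fits that leave out 1 mouse. Of 33 channels and calcium handling genes 7 rose and 0 fell by edgeR (0 at an unadjusted p under 0.05, 0 by DESeq2). Leaving out 1 mouse gave 4 to 9, with 4 without the 95-d mouse, and with the fat and muscle marker scores 2. Cacna1h, a T-type calcium channel, rose 6.06-fold from 0.826, 1.30 and 1.95 to 5.65, 6.51 and 12.9 CPM (adjusted p = 1.46e-05), Atp2a3, a calcium pump of the reticulum, from 76.5, 121 and 143 to 162, 172 and 197 CPM (0.62 ± 0.12, adjusted p = 0.00358), and Abcc9, the sulfonylurea subunit of vascular potassium channels, from 568, 662 and 779.9 to 810.2, 891 and 1061 CPM (0.45 ± 0.10, adjusted p = 0.00739). Of 31 vasoactive genes 7 fell and 2 rose. Edn3 and Edn1, endothelins, fell from 1.29, 1.81 and 2.54 to 0.305, 0.464 and 0.702 CPM and from 16.1, 27.2 and 32.3 to 6.09, 9.63 and 18.6 CPM (-1.92 and -1.11, adjusted p = 0.000289 and 0.0178), the latter named after its values were seen. Adm, adrenomedullin, a dilator peptide, lay at 21.4, 27.4 and 35.2 CPM at 2 mo and at 8.12, 13 and 18.9 CPM at 24 mo (-1.09 ± 0.18, adjusted p = 0.00123). Agtr1a, the receptor of angiotensin II, lay at 1.59, 3.01 and 4.01 CPM at 2 mo and at 1.22, 1.49 and 1.63 CPM at 24 mo (-0.98, adjusted p = 0.00922), with overlap and with an intronic gene, Gm48161, on its own strand. Pde5a, which degrades cGMP, rose from 243, 299.9 and 352 to 369, 405 and 453 CPM (0.44 ± 0.09, adjusted p = 0.00448). Constrictor and dilator genes thus both fell, and with the fat and muscle scores the number of falls was 1.

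Over 106 tested genes of MHC, interferon, chemokine and complement lists 10 (9.43%) rose and 1 fell, with a median log2 fold change of 0.25. Of 20 chemokines 4 rose and 1 fell. Cx3cl1, fractalkine, a chemokine held on cell surfaces, rose from 10.6, 15.4 and 16.7 to 25.4, 26.9 and 28.9 CPM (0.88 ± 0.10, adjusted p = 3.81e-05), without overlap, and Ccl2, a monocyte attractant, from 0.209, 0.327 and 0.871 to 0.761, 1.18 and 2.14 CPM (1.73, adjusted p = 0.0116), with overlap. Ccl19, a chemokine of lymphoid tissue, fell (-0.49, adjusted p = 0.0218). Of 21 complement genes 4 rose. They were C1s1, a protease of the classical pathway, Masp1, a protease of the lectin pathway, and C2 and C3, with log2 fold changes of 0.35, 1.12, 0.68 and 0.51 (adjusted p = 0.00246, 0.00414, 0.00576 and 0.025). Of 41 interferon-stimulated genes 2 rose, Trim30a and Lgals3bp (0.58 and 0.57, adjusted p = 0.0199 and 0.0243). Of 24 MHC and antigen presentation genes 0 passed by edgeR or DESeq2 (5 at an unadjusted p under 0.05, 4 of them higher). B2m, the light chain of MHC class I, lay at 368, 407 and 424 CPM at 2 mo and at 351, 455 and 599 CPM at 24 mo (adjusted p = 0.263).

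Stress and cycle genes were mixed. Of 27 cell cycle inhibitors and p53 targets 5 rose and 2 fell, and leaving out 1 mouse gave 1 to 4 that rose. With the replicate block 2 rose and 1 fell, and with the fat and muscle scores 0 passed in either direction by edgeR (without a score, 9 higher and 4 lower at an unadjusted p under 0.05, and 6 and 2 by DESeq2). Cdkn1a, p21, named after its values were seen, lay at 12.8, 13.4 and 17.1 CPM at 2 mo and at 14.2, 19.8 and 24.95 CPM at 24 mo (0.48 ± 0.12, adjusted p = 0.0228), and Aen, a nuclease induced by p53, at 13.9, 19.96 and 22 CPM at 2 mo and at 26.4, 27.5 and 37.4 CPM at 24 mo (0.61 ± 0.12, adjusted p = 0.00373). Cdkn1b, p27, lay at 67.4, 79.5 and 91.3 CPM at 2 mo and at 56.8, 62 and 66.96 CPM at 24 mo (-0.37 ± 0.08, adjusted p = 0.00599), below the range at 2 mo. Of 34 proliferation genes 0 passed by edgeR or DESeq2 (2 at an unadjusted p under 0.05, both lower), and Pcna, the sliding clamp of replication, lay at 45.01, 48.5 and 51.9 CPM at 2 mo and at 33.8, 45.9 and 51.1 CPM at 24 mo (adjusted p = 0.421). Of 23 immediate early genes, which respond within minutes to stimuli that include dissection, 6 rose and 0 fell by edgeR (0 at an unadjusted p under 0.05, 0 by DESeq2). Egr3 rose from 0.854, 1.42 and 2.02 to 2.37, 4.85 and 7.73 CPM (adjusted p = 0.000606), without overlap, and Junb from 6.96, 10.6 and 15.8 to 10.8, 34.2 and 50.2 CPM (adjusted p = 0.00342), with overlap and with Prdx2 on the other strand. Fos, picked after its values were seen, lay at 14.6, 69.4 and 149 CPM at 2 mo and at 11.4, 194 and 516 CPM at 24 mo (1.44, adjusted p = 0.223). The part of tissue handling in these values was not tested. Of 20 clock genes 0 passed by edgeR (6 at an unadjusted p under 0.05, 2 by DESeq2), and Clock lay at 163, 191 and 221 CPM at 2 mo and at 184, 199.6 and 229.8 CPM at 24 mo (adjusted p = 0.528).

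Of 80 cytosolic ribosomal protein genes 6 fell and 0 rose by edgeR (0 at an unadjusted p under 0.05, 0 by DESeq2), and all 80 had a log2 fold change below 0, with a median of -0.16. The signs were the same under RLE and total-count scaling. Leaving out 1 mouse gave 1 to 11 that fell, with 1 without the 95-d mouse. Rpl22l1 lay at 48.97, 51.1 and 56.4 CPM at 2 mo and at 31.3, 41.9 and 44.2 CPM at 24 mo (-0.37 ± 0.08, adjusted p = 0.00926). Of 33 heat shock and ER folding genes 2 fell, Dnajb11 and Pdia3 (-0.33 and -0.26, adjusted p = 0.00782 and 0.0133), both helpers of protein folding in the endoplasmic reticulum. Of 89 respiratory chain subunits 7 fell and 2 rose, and leaving out 1 mouse gave 2 to 6 that fell and 1 to 10 that rose. The falls were in subunits encoded in the nucleus, such as Ndufv3 (-0.51 ± 0.09, adjusted p = 0.00264), and the rises were mt-Co1 and mt-Co3, encoded in mitochondrial DNA. The first of these, mt-Co1, a subunit of cytochrome oxidase, lay at 8431, 9858 and 11170 CPM at 2 mo and at 10790, 15280 and 20200 CPM at 24 mo (0.59 ± 0.14, adjusted p = 0.0119). All genes of the mitochondrial chromosome together, and not only the subunits listed, took 3.88% ± 0.60 of counts at 2 mo and 5.42% ± 1.14 at 24 mo (SD, n = 6 each). The ranges of 3.15 to 4.66% and 4.03 to 7.13% overlapped, and the two-sided exact permutation test, chosen after the values were seen, gave p = 0.0216.

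Markers of other cell types moved with age in part, and their part in the results above was not tested. Of 14 Schwann cell and myelin genes 4 rose and 1 fell, and the score did not overlap between ages, as given above. Egr2, 1 of these rises and part of the score (1.73 ± 0.34, adjusted p = 0.00423), is also counted among the immediate early genes. Mbp, myelin basic protein, lay at 3.88, 4.84 and 5.51 CPM at 2 mo and at 6.35, 7.74 and 10.5 CPM at 24 mo (0.76 ± 0.14, adjusted p = 0.00347), and Cnp, an enzyme of myelin, at 11.03, 12.6 and 15.7 CPM at 2 mo and at 17.3, 19.3 and 21.98 CPM at 24 mo (0.60 ± 0.09, adjusted p = 0.000831), with Dnajc7 on the other strand. Pmp22, a myelin protein that SMCs also express, went the other way, at 169, 205 and 226 CPM at 2 mo and at 122, 137 and 163 CPM at 24 mo (-0.52 ± 0.09, adjusted p = 0.0011). Of 7 skeletal muscle genes 3 rose, and the score was 1.41 to 1.77 at 2 mo and 1.68 to 2.77 at 24 mo. Ckm, muscle creatine kinase, lay at 2.30, 2.39 and 3.64 CPM at 2 mo and at 3.79, 4.36 and 5.97 CPM at 24 mo (0.83 ± 0.17, adjusted p = 0.0055) and Ttn, titin, had a log2 fold change of 1.58 ± 0.44 (adjusted p = 0.0317), which failed in 6 of 12 fits that leave out 1 mouse. Of 6 cardiac and slow muscle genes 2 rose, Tnnt2, given above, and Ankrd1 (0.84 ± 0.17, adjusted p = 0.00604). The other 4 had log2 fold changes below 0 and did not pass, and the median of the list was -0.047. Among these 4, Tnni3, cardiac troponin I, was at -0.85 ± 0.33 (adjusted p = 0.118). Of 3 neuron genes 1 rose, Uchl1, a ubiquitin hydrolase, from 38.9, 52.9 and 66.7 to 79.95, 99.95 and 124 CPM (adjusted p = 0.000238). Of 8 mesothelium and lymph vessel genes 1 fell, Krt18, a keratin (-0.54 ± 0.13, adjusted p = 0.0181). Of 19 adventitial fibroblast genes 5 fell and 1 rose, with scores of 6.95 to 7.18 and 6.73 to 6.96, which barely overlapped. Mfap5 and Fbln1 are members of this list as well as of the elastic fiber list, and Dpt, dermatopontin, and Pi16 fell by 0.70 and 0.73 on the log2 scale (adjusted p = 0.000832 and 0.00256). In all, 15 of the 19 had a log2 fold change below 0. Of 20 endothelial genes 1 rose, Flt1, a VEGF receptor (0.72 ± 0.10, adjusted p = 0.000388). The endothelial scores were 4.05 to 5.00 and 4.10 to 4.89. Of 20 macrophage genes 0 passed by edgeR (2 at an unadjusted p under 0.05 and 1 by DESeq2, all higher), with scores of 4.38 to 4.88 and 4.28 to 5.23. Lyz2, lysozyme, lay at 147, 215 and 272 CPM at 2 mo and at 112, 207 and 309 CPM at 24 mo (-0.04, adjusted p = 0.938). Of the T and NK cell list 1 of 21 genes passed the count filter, and Cd4 lay at 0.139, 0.541 and 0.854 CPM at 2 mo and at 0.153, 0.542 and 3.20 CPM at 24 mo (adjusted p = 0.494). Of 6 B cell and 7 mast cell genes 0 passed by edgeR (2 and 4 at an unadjusted p under 0.05, 1 and 2 by DESeq2), and all 13 had log2 fold changes above 0. Brown fat genes varied within each age, with scores of 1.83 to 5.06 and 2.96 to 4.80, and 0 of 14 passed by edgeR (2 at an unadjusted p under 0.05, 1 by DESeq2). Ucp1, the uncoupling protein of brown fat, lay at 2.26, 79.6 and 249 CPM at 2 mo and at 17, 38.5 and 153 CPM at 24 mo (adjusted p = 0.53). Of 18 white fat genes 1 rose, Lep, leptin, from 0.154, 0.914 and 2.93 to 1.83, 3.15 and 18.5 CPM (adjusted p = 0.0223), with 4 of 12 fits that leave out 1 mouse failing. Hemoglobin transcripts ranged widely, Hbb-bs at 269, 1193 and 3174 CPM at 2 mo and at 826, 3097 and 3542 CPM at 24 mo (adjusted p = 0.331), and 0 of 8 red cell genes passed by edgeR or DESeq2 (4 at an unadjusted p under 0.05). Of 22 Hox genes, which record position along the body, 0 passed by edgeR or DESeq2 (2 at an unadjusted p under 0.05), and Hoxa7 lay at 22.8, 26.3 and 29.97 CPM at 2 mo and at 16.8, 19.98 and 28.3 CPM at 24 mo (adjusted p = 0.265).

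The 95-d mouse lay between the ages. For each mouse, genes were called in a fit without it, and its place was taken on the log2 CPM scale from 0% (mean of the other 2-mo mice) to 100% (mean of the 24-mo mice). This measure was chosen after the data were seen and has no test. Over 224 genes, the 95-d mouse had a median place of 20.6%, with 21.8% for the 84 genes lower at 24 mo and 20.3% for the 140 genes higher. The 5 mice of 62 d had medians of -5.84% to 4.32% over 166 to 185 genes. The 95-d mouse lay beyond all other 2-mo mice, toward the 24-mo level, in 124 of 224 genes (55.4%), and the 62-d mice in 9.64 to 20%. For each 62-d mouse the other 2-mo mice include the 95-d mouse, which can lower the share and the place of that 62-d mouse. The 24-mo mice had medians of 90.0% to 100%, and the youngest, of 609 d, stood at 99.6%. By gene, the 95-d mouse was the highest of the 2-mo mice in 11 of the 15 largest rises and the lowest in 9 of the 15 largest falls. Sphkap was at 17.6 CPM in it and at 3.25 to 10.7 CPM in the others, and Igfbp2 at 11.7 against 4.39 to 7.19 CPM. Col3a1 was at 6047 CPM against 6921 to 9025 CPM, and Sparc at 3480 against 4396 to 5736 CPM. Col1a2 and Col1a1 lay within the range of the others, at 4647 against 4467 to 6093 CPM and at 1376 against 1239 to 1820 CPM. Without this mouse, the log2 fold changes were -1.71 for Col3a1, -1.14 for Eln, -1.5 for Sparc, -0.98 for Lox, 4.19 for Igfbp2 and 4.50 for Sphkap. Each was larger in size than with it, which follows from its place toward the 24-mo level in these genes. Only 1 mouse of this age was sampled, so age and that animal cannot be told apart.

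**Figure D5:**
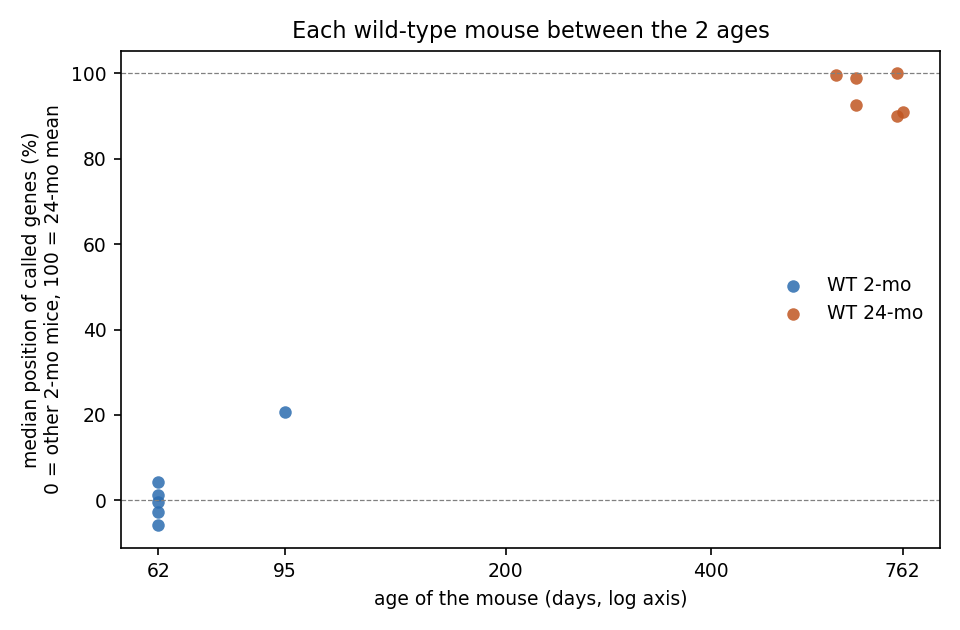
Each point is 1 WT mouse, placed by its age in days (x axis, log scale) and by the median place of called genes between the other 2-mo mice (0%) and the 24-mo mean (100%) on the y axis, with genes called in a fit without that mouse. The 95-d mouse stands at 20.6%, the 62-d mice between -5.84% and 4.32%, and the 24-mo mice at 90.0% or above.

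Mice of 24 mo also varied more among themselves. The median over genes of the SD of log2 CPM was 0.167 at 2 mo and 0.212 at 24 mo, and 65.6% of genes had the larger SD at 24 mo. Without 24-mo replicate 1 the difference between the medians was 0.019, against 0.045 with all mice. The ages of the 24-mo mice also spread over more days.

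Levels in the 2-mo HGPS mice, which make progerin from their mutated Lmna, are given for some of the same genes from a fit of all 18 mice, in which 7201 of 15210 genes (47.3%) differed between 24-mo WT and HGPS at an adjusted p under 0.05. That comparison shares the 24-mo mice with the one above. In this paragraph CPM are means ± SD of 6 mice and log2 differences are ± SE. Lox was at 791 ± 90 CPM in HGPS and 229 CPM in 24-mo WT (log2 difference, 24-mo minus HGPS, -1.79 ± 0.09, adjusted p = 3.3e-11), beside 438 CPM in 2-mo WT. Sparc was at 7887 ± 757 CPM in HGPS (-2.15 ± 0.11, adjusted p = 3.1e-11), above both WT ages. Col3a1 was at 5747 ± 1491 CPM (-1.27 ± 0.14, adjusted p = 1.09e-06), and Eln at 5212 ± 1003 CPM (-1.05 ± 0.17, adjusted p = 4e-05). Col1a1 was at 1265 ± 514 CPM (-0.66 ± 0.28, adjusted p = 0.0579) and Col5a1 at 480 ± 109 CPM (-0.13 ± 0.15, adjusted p = 0.488), and neither passed the test, with overlapping ranges. Among genes that rose with age, Igfbp2 was at 21.3 ± 11.3 CPM in HGPS (2.39 ± 0.31, adjusted p = 5.55e-06) and Tnnt2 at 11.2 ± 3.9 CPM, where the ranges of HGPS and 24-mo WT overlapped (0.79 ± 0.23, adjusted p = 0.00752). Capn13 stayed near the limit of detection, at 0.131 ± 0.103 CPM (6.32 ± 0.37, adjusted p = 2.47e-10).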

How the data were processed

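RNA of the whole descending aorta of 18 mice was sequenced by the authors, and the 12 WT mice were compared here by age. The authors assigned reads to GENCODE M23 transcripts (GRCm38.p6) with salmon and summed them per gene with tximport. For 54281 genes the authors deposited estimated counts, the expected counts of salmon as whole numbers without normalization. The submitters' processing notes also name Bowtie 0.12.2, in a role not given. Whether rounding made them whole, and whether strand was used, is not given in the sources used here. Symbols, coordinates and lengths came from GENCODE M21, which held 54107 of the identifiers.

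The 14345 genes that reached 10 counts in 6 or more of the 12 mice were scaled by TMM and tested with edgeR 4.0.16 (quasi-likelihood, R 4.3.3, 10 residual degrees of freedom, Benjamini-Hochberg adjustment). Standard errors were taken from the log2 fold change and the F statistic (its ratio to the root of F). A prior count of 2 was used for log2 CPM. Calls used 1.5-fold and an adjusted p of 0.001, as in the study, or 0.05 for list counts. Replicates are separate mice and p-values measure the spread between them; mice of an age always differed by more than sampling noise (chi-square per degree of freedom 8.08 or more over 30 pairs).

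Members and the 44 gene lists were chosen with earlier results of these data known. Genes named are the 15 largest rises and falls among called genes without overlap and with a mean count of at least 100, up to 4 members per list with the smallest p (2 of highest count where 0 passed), and Lox, Col1a1, Col3a1, Col5a1 and Eln. A list score is the mean log2 CPM of its tested genes. The same replicate number marks different animals, and deviations of same-numbered mice did not go together (correlations -0.18 to 0.09), so mice were not paired. In simulated counts for this comparison over 14345 genes, the calls held 29.9% of genes changed 1.5-fold, 70.2% of those changed 2-fold, 90.9% of those changed 4-fold and 0 of 14145 unchanged genes. Alternatives were RLE or total-count scaling, DESeq2 1.42.0, other filters and thresholds, all 18 mice, the replicate block, each mouse left out, marker scores, GC and length offsets and thinning.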

Additional observations from a re-analysis of the deposited data

Results flagged for a closer look

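Among 72 sets of values from the 6 mice of 1 age, tested for a single mouse apart from the rest, 8 were flagged. Chance alone flags about 1 in 20 independent sets, but these sets come from the same mice and are not independent. At 2 mo, the 95-d mouse (replicate 6) stood apart in 3 genes: Eln at 3087 CPM, with the others at 5263 to 6229 CPM, Nfasc at 4.16 CPM, with the others at 1.21 to 2.19 CPM, and Rgs17 at 7.66 CPM, with the others at 4.05 to 5.19 CPM. In each it lay toward the 24-mo level. Replicate 5 stood apart in Pisd-ps1, at 4.11 CPM against 2.62 to 3.13 CPM, and replicate 3 in 2210407C18Rik, at 29.7 CPM against 21.4 to 24.2 CPM. At 24 mo, replicate 5 stood apart in Prune2, at 89.9 CPM against 64.3 to 72.5 CPM, and in Cdh18, at 6.36 CPM against 2.79 to 3.77 CPM. Replicate 4 stood apart in Angptl7, at 33.5 CPM against 17.6 to 19.4 CPM, and Angptl7 overlaps Mtor on the other strand.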

How the results depend on the processing

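The 248 calls numbered 461 with DESeq2, 98 at cut-offs of 0.8 in log2 fold change and 0.0001 in adjusted p, 64 when edgeR tested against a 1.5-fold change, 85 with the replicate block, 40 with the brown fat and skeletal muscle scores and 0 with the Schwann cell score. The 1506 genes past an adjusted p of 0.05 numbered 990, 629 and 16 with the last 3. Same-numbered mice do not pair by the check above, and no 2-mo mouse correlated best with the 24-mo mouse of its own number. Leaving out 1 mouse gave 166 to 235 calls and 1143 to 1619 genes past 0.05, and a difference in spread of 0.019 to 0.051 log2 units. Of 130 named genes past 0.05, 113 held in every such fit. With the Schwann cell score the log2 fold changes of Lgals3bp, C2, C3 and Rspo1 turned to -0.17, -0.15, -0.16 and -0.73, and with the fat and muscle scores that of Ttn to -0.069; the cause was not tested. RLE or total-count scaling, no count filter, 1 CPM in 6 mice, all 18 mice, GC and length offsets and thinning gave 223 to 304 calls, all within 1.5 times of 248. DESeq2's calls included all 248.

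The depth limits genes below about 1 CPM, where counts are few. The sample numbers in the table's column names do not overlap between the ages, what they number is not given, and no label names a batch, so a batch and age cannot be told apart. The 24-mo group is 609 to 762 d old and the 2-mo group holds a mouse of 95 d. Only male mice were sequenced, and layers of the wall were not separated.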
